A study of Mus musculus with 31 samples.

Results

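Expression of 10 genes of the Notch pathway was examined in mouse eyes at embryonic day 13.5. They are the receptors Notch1 and Notch2, the ligands Dll1, Dll3, Dll4 and Jag1, and the target genes Hes1, Hes5, Hey1 and Hey2. They are 10 of the 34832 gene names with a probe. Probes were taken by gene name, leaving out control spots, which gave 14 of the 55681 different probes on the 1-colour Agilent arrays. Of these, 10 probes for 9 genes were bright enough to be tested (mean normalized signal above 50), and the Hey2 probe and a dim further probe of Notch1, of Notch2 and of Dll1 were not. The 20 eyes came from 3 wild-type (WT) females, 3 WT males, 11 Ftx-/- females and 3 Ftx-/Y males, all at the same stage. Per the methods the mutant line was made by gene targeting in C57BL/6N cells and kept on that background, and its targeted X chromosome also lacks the expression of miRNA374 and miRNA421, which lie within Ftx. Only eyes that looked normal were taken, and their pigmented epithelium was dissected off, so retina, lens and surrounding tissue were measured together, and fewer cells of a type cannot be told apart from less RNA per cell. The methods state duplicate hybridizations, and the data analysed here held 2 arrays for each Ftx-/- eye, which were averaged, and 1 array for every other eye. The labels do not say which eyes share an embryo or a litter, so p-values cover the spread between these eyes, which may be partly technical.

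Notch receptors are bound by Delta and Jagged ligands on a neighbouring cell and are then cut, and the freed intracellular part enters the nucleus and acts with Rbpj on target genes of the Hes and Hey families. In the embryonic retina this signal keeps progenitor cells from becoming neurons, since Hes proteins repress proneural genes, while cells that begin to differentiate present Delta ligands. Jag1 acts in the lens and the ciliary margin, and Dll4 is known from retinal precursors and from growing vessels.

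The arrays were spread over 4 slides. Slide 1 held all 6 WT eyes and Ftx-/Y eye 1, slide 2 the other 2 Ftx-/Y eyes and Ftx-/- eyes 1 to 3, slide 3 Ftx-/- eyes 4 to 7, and slide 4 Ftx-/- eyes 8 to 11. No slide held WT and Ftx-/- eyes, so in females slide and genotype cannot be told apart. A fit with the slide as a fixed block ties WT to Ftx-/- females only through Ftx-/Y eye 1 on slide 1 and the 2 Ftx-/Y eyes on slide 2. The Ftx-/- eyes of slides 3 and 4 do not enter that difference. Ftx signal (a probe matched by accession, listed under an older gene name) was 50.04 to 134 in WT females and 101 to 110 in WT males, against 8.25 to 37.4 in Ftx-/- and 13.2 to 18.6 in Ftx-/Y eyes, and Xist and Eif2s3y followed the labelled sex in all 20 eyes. Mesenchyme and lens markers moved with the female genotype, in which 16.1% of all probes were called higher and 15.2% lower. Of 8 tested mesenchyme genes 7 were higher in Ftx-/- than in WT females, with a summed signal of 4064 to 5871 in WT and 6130 to 50900 in Ftx-/- eyes (the others of the 12 listed were too dim to test). The mesenchyme sum was 5671 to 14130 in WT males, overlapping the Ftx-/- range, and 5245 to 10380 in Ftx-/Y eyes. Of 18 lens genes 15 were lower in Ftx-/- than in WT females, with a summed signal of 2057000 to 2198000 in WT and 1504000 to 2018000 in Ftx-/- eyes. Of 7 tested pigment epithelium genes 1 (Mitf, log2 difference 0.73, limma adjusted p = 0.0198) was called higher in Ftx-/- than in WT females, close to the share of all probes, and all 7 differences were positive, in eyes from which this layer was dissected off (the other 3 of the 10 listed were too dim to test). Their summed signal was 5268 to 7624 in WT females and 3385 to 34490 with a median of 15600 in Ftx-/- eyes, beside 8464 to 12990 in WT males and 5163 to 7748 in Ftx-/Y eyes. The part of these tissues in the differences given here was not tested.

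Promoter sequences show where the factor at the end of the pathway could find its letters. RefSeq windows (GRCm38.p6, the 250 bases before each start site, 9 windows) were given for 8 of the 10 genes, all but Hes1 and Hey1. The core letters that Rbpj is known to bind, TGGGAA, were searched on both strands. They stood in 2 of the 9 member windows, a share close to the 21.6% of all 32851 windows. The 2 were those of the target genes Hes5 (2 matches, starting 226 and 82 bases before the start site) and Hey2 (1 match, 207 bases before it). Shown are these 2 windows and that of Dll3, the member that passed the test between mutant females and males, 5′ to 3′ on the gene's strand, with the matched letters or their reverse complement TTCCCA in capitals. The Hes5 window lies at chr4:154960673-154960922 (plus strand), the Hey2 window at chr10:30842784-30843033 (minus strand) and the Dll3 window at chr7:28301786-28302035 (minus strand).
Hes5: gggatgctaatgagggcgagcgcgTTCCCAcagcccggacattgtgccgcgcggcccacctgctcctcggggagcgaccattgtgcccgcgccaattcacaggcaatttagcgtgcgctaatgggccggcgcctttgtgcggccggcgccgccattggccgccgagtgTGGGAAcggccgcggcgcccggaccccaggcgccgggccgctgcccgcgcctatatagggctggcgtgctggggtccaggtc
Hey2: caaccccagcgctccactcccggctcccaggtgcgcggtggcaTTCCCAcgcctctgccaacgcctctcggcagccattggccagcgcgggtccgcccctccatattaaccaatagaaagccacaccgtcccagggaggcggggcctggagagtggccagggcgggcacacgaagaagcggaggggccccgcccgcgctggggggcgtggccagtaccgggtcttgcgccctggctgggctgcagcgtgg
Dll3: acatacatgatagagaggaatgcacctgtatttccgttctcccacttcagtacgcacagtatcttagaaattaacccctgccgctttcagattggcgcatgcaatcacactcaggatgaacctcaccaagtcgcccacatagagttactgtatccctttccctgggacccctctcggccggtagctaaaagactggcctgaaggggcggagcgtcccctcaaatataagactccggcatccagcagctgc
A match is a description of letters and was not a measure of binding in these eyes.

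Genes were compared by limma on log2 normalized signal, in a fit over all 20 eyes with the p-value adjusted over all 25261 tested probes, and called at an adjusted p under 0.05. Between Ftx-/- and WT females, 3 of the 9 tested genes were called, Dll1 and Hey1 higher and Dll4 lower, beside 31.3% of all tested probes, so the members' share was close to that of the array as a whole. The same 3 had an unadjusted p under 0.05, beside 42.4% of all probes, and no member's eyes lay apart between these groups, beside 9.53% of probes with all Ftx-/- eyes higher and 9.24% with all lower. Between Ftx-/Y and WT males none of the 9 was called, beside 0.00% of all probes, and 1 (Hey1) had an unadjusted p under 0.05, as had 12.8% of all probes. No member's brightest probe lay wholly lower in Ftx-/Y eyes, beside 7.76% of all probes. Between Ftx-/- females and Ftx-/Y males 1 gene, Dll3, was called, beside 1.33% of all probes (1.01% lower, 0.329% higher), and 3 members (Notch2, Dll3 and Hes5) had an unadjusted p under 0.05, beside 15.1%. Of the members, Dll3 lay wholly lower in Ftx-/- females and none wholly higher, the latter beside 1.48% of all probes. Between WT females and WT males none was called, beside 0.198% of all probes (0.0713% higher, 0.127% lower), and 3 (Notch1, Dll1 and Dll3) had an unadjusted p under 0.05, beside 11.3%. Whether the change with the deletion differed between the sexes was tested directly, and no member was called, beside 0.00% of all probes (2 members, Notch1 and Dll1, against 12.9% of probes at an unadjusted p under 0.05). The methods' test, a two-tailed unequal-variance test, run here on linear signal, called no member in either male or WT comparison after Benjamini-Hochberg adjustment. The median log2 difference of the 9 genes was -0.13 in females and 0.02 in males, beside -0.01 and 0.02 over all probes.

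**Figure D1:**
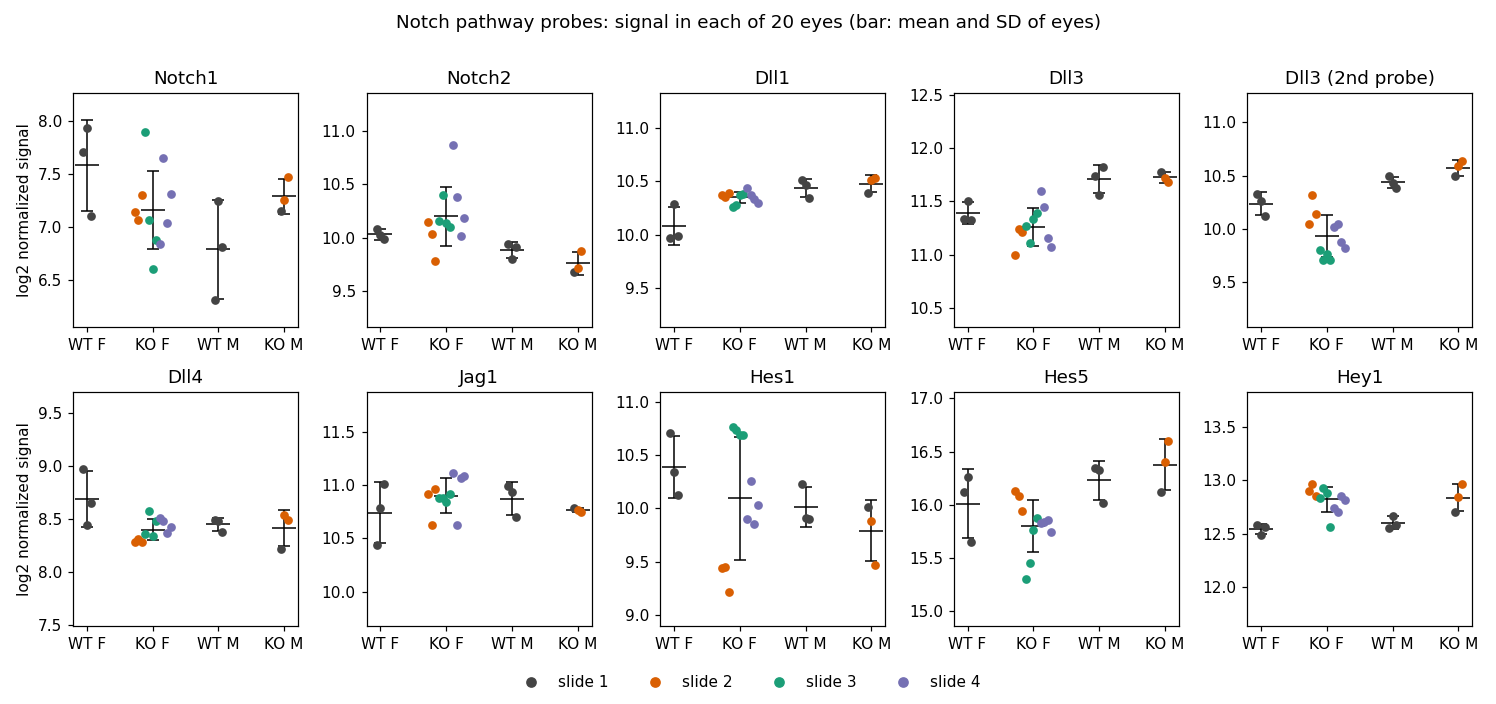
Log2 normalized signal of the 10 tested probes (panels) in each of 20 eyes, by group (F female, M male) and coloured by slide; bars give the mean and SD over eyes, and every panel spans the same log2 range. Dll3 lay lower in females than in males with both probes, and Hes1 in Ftx-/- eyes fell into 3 separate ranges by slide.

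**Figure D2:**
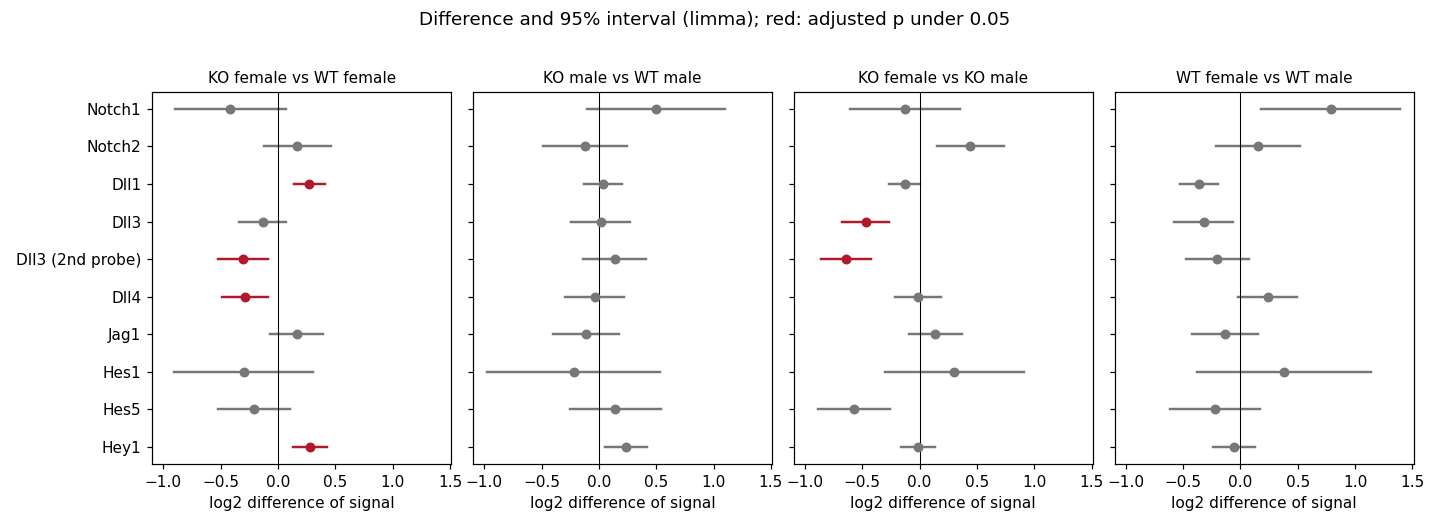
Log2 difference (horizontal axis) with its 95% interval for each tested probe (1 line each) in 4 comparisons, with red for an adjusted p under 0.05. Dll1 and Hey1 lay above 0 and Dll4 and the second Dll3 probe below 0 in Ftx-/- against WT females, and both Dll3 probes lay below 0 in Ftx-/- females against Ftx-/Y males.

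Of the receptors, Notch1, the receptor most used by neural progenitors, was read by a probe at chr2:26319440-26319499 (mm9, as the files give all probe positions; exon or untranslated region was not analysed here). Its signal was 208, 243 and 138 in WT females, 97.2 to 237 with a median of 134 in Ftx-/- eyes, 79.6, 151 and 113 in WT males and 142, 152 and 177 in Ftx-/Y eyes. The ranges overlapped in both sexes, and the change was -0.42 on the log2 scale in females (SE 0.23, adjusted p = 0.176) and 0.50 in males (SE 0.29, adjusted p = 0.482). Without WT female eye 2 the female difference was -0.24, and without eye 4 it was -0.65, while without WT male eye 1 the male difference was 0.26. The female change minus the male change was -0.91 (95% interval -1.69 to -0.14), with an unadjusted p of 0.0228 and an adjusted p of 0.317. The dim further Notch1 probe, well above background on 24 of 31 arrays, was not tested. In females it went the other way from the tested probe, at 17.2 to 32.6 in WT and 19.1 to 66.9 in Ftx-/- eyes. Of these Ftx-/- eyes 10 of 11 were above the WT female mean. It read 14.4 to 140 in WT males and 20.9 to 82.2 in Ftx-/Y eyes.

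Notch2, a receptor known from lens and ciliary body development, gave 1080, 1050 and 1010 in WT females, 882 to 1870 with a median of 1130 in Ftx-/- eyes, 980, 889 and 963 in WT males and 820, 840 and 942 in Ftx-/Y eyes. All 11 Ftx-/- eyes were above the mean of the Ftx-/Y eyes, with 1 of them within the Ftx-/Y range, and the sex difference among mutants was 0.44 (SE 0.14, adjusted p = 0.135). Within slide 2 it was 0.19 (adjusted p = 0.682). All 3 WT females were above all 3 WT males by Notch2, as for 10.4% of all probes in that direction, with a difference of 0.15 (adjusted p = 0.80). Between Ftx-/- and WT females it was 0.17 (95% interval -0.12 to 0.46, adjusted p = 0.373).

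Among the ligands, Dll1 is the main activating Delta ligand of newborn retinal neurons. Its probe (chr17:15504623-15504682, mean of 10 spots) read 1000, 1250 and 1020 in WT females, 1230 to 1390 with a median of 1320 in Ftx-/- eyes, 1460, 1420 and 1300 in WT males, and 1340, 1470 and 1480 in Ftx-/Y eyes. The WT females were the low group, and all 3 of them were below all 3 WT males, as for 7.49% of all probes. All 11 Ftx-/- eyes were above the WT female mean, although WT female eye 2 overlapped their lower end. The log2 signal of Dll1 in Ftx-/- eyes exceeded that of WT females by 0.27 (SE 0.064, 1.21-fold, limma adjusted p = 0.00419) and changed by 0.04 in males (95% interval -0.13 to 0.21). The difference of these changes was 0.23 (adjusted p = 0.356), and WT females differed from WT males by -0.36 (unadjusted p = 0.000246, adjusted p = 0.101). Without WT female eye 1 the female difference was 0.21 with an adjusted p of 0.0522. With the slide as a fixed block, tied only through the Ftx-/Y eyes, the female difference was 0.16 with an adjusted p of 0.657.

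Dll3, a divergent ligand that is made by newborn neurons and acts within the cell rather than by activating Notch on its neighbour, was the member called between the sexes among Ftx mutants. The brighter probe (chr7:29078763-29078822) read 2590, 2910 and 2560 in WT females and 3420, 3030 and 3630 in WT males. In the mutants it read 2040 to 3100 with a median of 2420 in Ftx-/- eyes and 3510, 3360 and 3290 in Ftx-/Y eyes. Every female eye was thus below every male eye of the same genotype. The second probe, which lies beside it on the chromosome (chr7:29079061-29079120), read 1290, 1220 and 1110 in WT females, 1440, 1380 and 1340 in WT males, 835 to 1280 with a median of 942 in Ftx-/- eyes, and 1440, 1540 and 1600 in Ftx-/Y eyes, again with no overlap between the sexes.

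Between Ftx-/- females and Ftx-/Y males Dll3 was lower by both probes, with log2 differences of -0.47 (SE 0.098, 0.722-fold, limma adjusted p = 0.0231) and -0.64 (SE 0.11, 0.641-fold, adjusted p = 0.00320). Groups that did not overlap in this direction made up 2.59% of all probes. In WT eyes, all on slide 1, the sex differences were -0.32 (adjusted p = 0.326) and -0.20 (adjusted p = 0.601), and 7.49% of all probes did not overlap in this direction. Within slide 2, with 3 Ftx-/- and 2 Ftx-/Y eyes, they were -0.55 and -0.44, with unadjusted p of 0.00131 and 0.00436 and adjusted p of 0.411 and 0.480. With any of the 3 Ftx-/Y eyes left out the brighter probe kept a difference between -0.44 and -0.49 but had an adjusted p of 0.113 without eye 1, 0.168 without eye 2 and 0.109 without eye 3, and the second probe had 0.0508 without eye 3. Summed retinal neuron markers (11 genes) also lay apart in this comparison, at 148100 to 200200 in Ftx-/- and 209400 to 215800 in Ftx-/Y eyes with 2 of 11 genes called lower and all 11 differences negative (9 at an unadjusted p under 0.05). Of 18 lens genes 4 were called lower and 17 differences were negative (15 at an unadjusted p under 0.05), where 1.01% of all probes were called lower and 15.1% had such a p in either direction. Summed macrophage markers lay apart the other way, at 6646 to 9065 in Ftx-/- and 5111 to 6320 in Ftx-/Y eyes, with 1 of 6 tested genes (Csf1r) called higher, beside 0.329% of all probes, and all 6 differences positive. Of 7 tested erythroid genes 1 (Hbb-b1) was lower, with summed signals of 211000 to 383500 and 304200 to 630700 that overlapped. No mesenchyme, pigment epithelium or endothelial gene was called, but 7 of 8, 7 of 7 and 12 of 13 differences were positive. Of these genes 3, 2 and 2 had an unadjusted p under 0.05, beside 15.1% of all probes. The part of these tissues in the Dll3 difference was not tested.

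With the deletion in females, the 2 Dll3 probes differed in call: -0.13 for the brighter (adjusted p = 0.314) and -0.30 for the second (adjusted p = 0.0337), both overlapping with WT. The brighter probe's difference was -0.07 without WT female eye 2. The second probe also differed by slide in Ftx-/- eyes, at 1060, 1280 and 1130 on slide 2, 835 to 891 on slide 3 and 906 to 1060 on slide 4, and against slide 2 eyes alone the change from WT females was -0.07 (adjusted p = 0.581). It was also not called without WT female eye 1 (adjusted p = 0.166) or without eye 2 (adjusted p = 0.108). Male changes were 0.02 and 0.14, with neither probe called.

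Dll4 (chr2:119160779-119160838), the Delta ligand of retinal precursors and sprouting vessels, read 501, 349 and 403 in WT females, 311 to 381 with a median of 330 in Ftx-/- eyes, 360, 358 and 334 in WT males, and 298, 372 and 359 in Ftx-/Y eyes. WT female eye 1 stood above all other eyes, and WT female eye 2 lay within the Ftx-/- range. Dll4 was lower in Ftx-/- than in WT females, with a log2 difference of -0.29 (SE 0.097, 0.819-fold, limma adjusted p = 0.0301), and without WT female eye 1 the difference was -0.15 with an adjusted p of 0.321. Without WT female eye 4 it was -0.31 with an adjusted p of 0.0613. With the slide as a fixed block, tied only through the Ftx-/Y eyes, it was -0.69 with an unadjusted p of 0.00275 and an adjusted p of 0.154. With the slide as a random block it was -0.39 and just missed the threshold (adjusted p = 0.0503). Males changed by -0.04 (95% interval -0.29 to 0.22). Of 13 tested endothelial genes 1 was called higher in Ftx-/- females, beside 16.1% of all probes, 5 had an unadjusted p under 0.05, beside 42.4%, and 10 differences were positive, with a median of 0.33. Their summed signal was 17840 to 20020 in WT females and 16660 to 27780 in Ftx-/- eyes.

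Jag1, a ligand of lens and ciliary margin, read 1380, 1760 and 2060 in WT females, 1580 to 2220 with a median of 1930 in Ftx-/- eyes, 2030, 1960 and 1660 in WT males and 1760, 1750 and 1720 in Ftx-/Y eyes. The groups overlapped throughout, with changes of 0.16 in females (95% interval -0.07 to 0.39, adjusted p = 0.274) and -0.11 in males (95% interval -0.40 to 0.18, adjusted p = 0.782). Without WT female eye 1 the Jag1 difference in females was 0.01, and without eye 4 it was 0.29. In males it was -0.05 without WT male eye 1 and -0.20 without WT male eye 3.

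Among the target genes, Hey1, a repressor of the Hairy family, rose in females. Its probe (chr3:8663432-8663491) read 6140, 5760 and 6060 in WT females, 6040 to 8030 with a median of 7390 in Ftx-/- eyes, 6020, 6510 and 6130 in WT males, and 6680, 7380 and 7990 in Ftx-/Y eyes. All 11 Ftx-/- eyes were above the WT female mean and 10 of them above every WT female eye, with eye 7 at 6040 the exception. All 3 Ftx-/Y eyes were above all 3 WT males, a pattern that 14.0% of all probes showed in that direction. The increase was 0.28 in females (SE 0.071, 1.21-fold, limma adjusted p = 0.00663) and 0.24 in males (SE 0.089, 1.18-fold, unadjusted p = 0.0151, adjusted p = 0.289), and the difference between the sexes' changes was 0.04 (95% interval -0.20 to 0.28). Ftx-/Y eye 1, on the slide of the WT males, exceeded their mean by 0.10 on the log2 scale. With the slide as a fixed block, tied only through the Ftx-/Y eyes, the female increase was 0.16 with an adjusted p of 0.651. Erythroid markers moved with the male comparison, with summed signals of 206300 to 261500 in WT and 304200 to 630700 in Ftx-/Y eyes. All 7 tested genes had positive differences (0.67 to 1.03) at an unadjusted p under 0.05, beside 12.8% of all probes, and none was called. Their part in the male differences was not tested.

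Hes5, a main effector by which Notch holds retinal progenitors undifferentiated, was read by 1 bright probe (chr4:154336347-154336406) that was not flagged as saturated on any of the 31 arrays. It read 71400, 78500 and 51400 in WT females, 40400 to 71500 with a median of 58400 in Ftx-/- eyes, 83000, 82400 and 66400 in WT males, and 71300, 86800 and 99000 in Ftx-/Y eyes. Every Ftx-/- eye lay below the Ftx-/Y mean, with only Ftx-/Y eye 1 touching the Ftx-/- range. The log2 difference between mutant females and mutant males was -0.57 (SE 0.15, unadjusted p = 0.00111, adjusted p = 0.0641), and within slide 2, where Ftx-/- eyes read 71500, 69300 and 62800 and Ftx-/Y eyes 86800 and 99000, it was -0.45 (unadjusted p = 0.00257, adjusted p = 0.437). The change with the deletion was -0.21 in females (95% interval -0.52 to 0.10, adjusted p = 0.297) and 0.14 in males (95% interval -0.25 to 0.54). Without WT female eye 2 the female difference was -0.09, and without eye 4 it was -0.39. The male difference was 0.04 without WT male eye 3, 0.27 without Ftx-/Y eye 1 and 0.03 without Ftx-/Y eye 3. Summed retinal progenitor markers (10 genes) were 284400 to 399200 in Ftx-/- and 326400 to 387400 in Ftx-/Y eyes, with none of the 10 called in this comparison, beside 1.33% of all probes, and 5 at an unadjusted p under 0.05, beside 15.1%.

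Hes1, the target gene that keeps progenitors cycling in retina, lens and optic stalk alike, varied with the slide (chr16:30067820-30067879). Ftx-/- eyes read 695, 698 and 595 on slide 2, 1740, 1700, 1650 and 1650 on slide 3, and 958, 1230, 927 and 1050 on slide 4. The 3 ranges were all apart, which held for 5.56% of all tested probes, while the 2 arrays of an eye differed by a median of 0.14 on the log2 scale. On slide 2 the Ftx-/Y eyes read 946 and 708, above the 3 Ftx-/- eyes, and on slide 1 the WT females read 1670, 1300 and 1120, the WT males 1200, 960 and 955 and Ftx-/Y eye 1 read 1040. The change in females was -0.30 (SE 0.29, adjusted p = 0.451), and it was -1.03 with Ftx-/- eyes of slide 2 alone (adjusted p = 0.00282) and 0.33 with those of slide 3 alone. The female difference was -0.14 without WT female eye 1. The male change was -0.22 (SE 0.36, adjusted p = 0.841), at -0.11 without WT male eye 1, -0.33 without Ftx-/Y eye 1 and -0.06 without Ftx-/Y eye 3. Hey2 was well above background on 5 of 31 arrays, with a median signal of 14.3 in Ftx-/- eyes, so it had only a bound in these eyes and no difference is given.

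**Figure D3:**
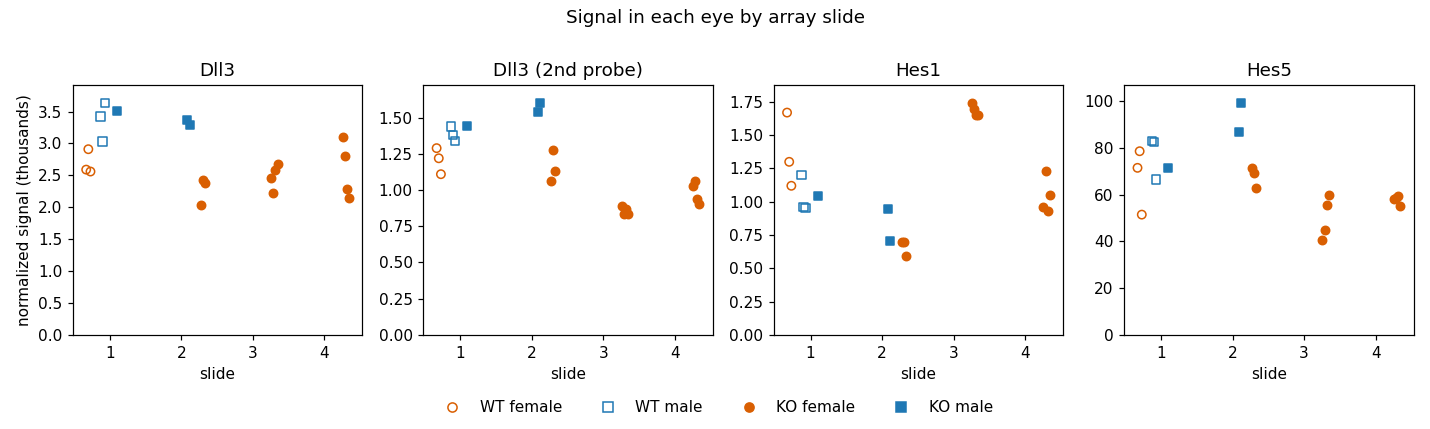
Normalized signal (vertical axis, from 0, scaled as its label states) of both Dll3 probes, Hes1 and Hes5 in each eye by slide, with circles for females, squares for males, open symbols for WT and filled symbols for mutants. On slides 1 and 2 every female eye lay below every male eye of its genotype with both Dll3 probes, and Hes1 in Ftx-/- eyes was 595 to 698 on slide 2 and 1650 to 1740 on slide 3.

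Further genes of the pathway were counted from a list of 67, of which 64 were tested (Rbpjl, Hes3 and Bhlhe40 were too dim). In Ftx-/- against WT females 11 were higher and 7 lower, beside 16.1% and 15.2% of all probes, with a median log2 difference of 0.00. Among the named rises, Maml2, a coactivator of the Notch complex, was at 80.7 to 121 in WT females and 133 to 196 in Ftx-/- eyes, with no overlap (log2 difference 0.61, limma adjusted p = 0.00294). Itch, a ubiquitin ligase that turns Notch over, was at 817 to 1210 and 1440 to 1890 (0.58, adjusted p = 0.000430). Snw1, another cofactor of the complex, was at 3850 to 4200 and 4680 to 5620 (0.31, adjusted p = 0.000486). The proteases were also among them: Adam17, which can cut Notch at the cell surface, at 62.5 to 103 and 95.4 to 139 (0.55, adjusted p = 0.00678), and Aph1b, a subunit of gamma-secretase, at 972 to 1050 and 1150 to 1300 (0.28, adjusted p = 0.00218). Tle4, a corepressor, was at 360 to 404 and 401 to 536 (0.31, adjusted p = 0.0118).

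Of the named falls, Lfng, a glycosyltransferase that tunes which ligands a receptor answers, was at 451 to 542 in WT females and 335 to 440 in Ftx-/- eyes (log2 difference -0.33, limma adjusted p = 0.0118). Dtx1, a regulator of Notch trafficking and itself a target in several tissues, was at 7830 to 10000 and 5150 to 7540 (-0.46, adjusted p = 0.00377). Notch3, the receptor of vessel walls and of some progenitors, was at 4230 to 4790 and 3330 to 4210 (-0.25, adjusted p = 0.0191). For these 3 genes the groups did not overlap, and they were named among calls in which all 11 Ftx-/- eyes lay on the same side of the WT female mean. Of the 64 tested genes 6 lay wholly higher and 3 wholly lower in Ftx-/- eyes, beside 9.53% and 9.24% of all probes. Dtx3l, a ubiquitin ligase, had a log2 difference of -0.55, Furin, which cuts the receptor on its way to the surface, -0.41, and Hes2 -0.39 (adjusted p of 0.0191, 0.0203 and 0.0189), with WT and Ftx-/- eyes overlapping. The Dtx3l value rests on 1 WT female eye at 645, with the others at 281 and 311 and Ftx-/- eyes at 232 to 326, and without WT female eye 1 it was -0.17 (adjusted p = 0.340). The Hes2 difference was -0.24 without WT female eye 2 (adjusted p = 0.195). Of the 18 calls, 8 held without WT female eye 1, 10 without eye 2 and 14 without eye 4. The calls of Notch3, Tle4, Adam17 and Furin were also lost without WT female eye 1, those of Adam17, Furin and Lfng without eye 2, and that of Tle4 without eye 4. In males none of the 64 was called, beside 0.00% of all probes, with 4 at an unadjusted p under 0.05, beside 12.8%. Between Ftx-/- females and Ftx-/Y males 2 of the 64 were called, beside 1.33% of all probes: Lfng (-0.52, adjusted p = 0.00873) and Hes2 (-0.50, adjusted p = 0.0481), both lower in every Ftx-/- eye, as for 2.59% of all probes. Lfng was not called without Ftx-/Y eye 3 (-0.41, adjusted p = 0.138). Hes2 was not called without any 1 of the Ftx-/Y eyes, with differences of -0.52, -0.48 and -0.49 without eyes 1, 2 and 3. No further pathway gene was called between females of the 2 genotypes with the slide or the scan as a fixed block, fits that tie these females only through the Ftx-/Y eyes.

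**Figure D4:**
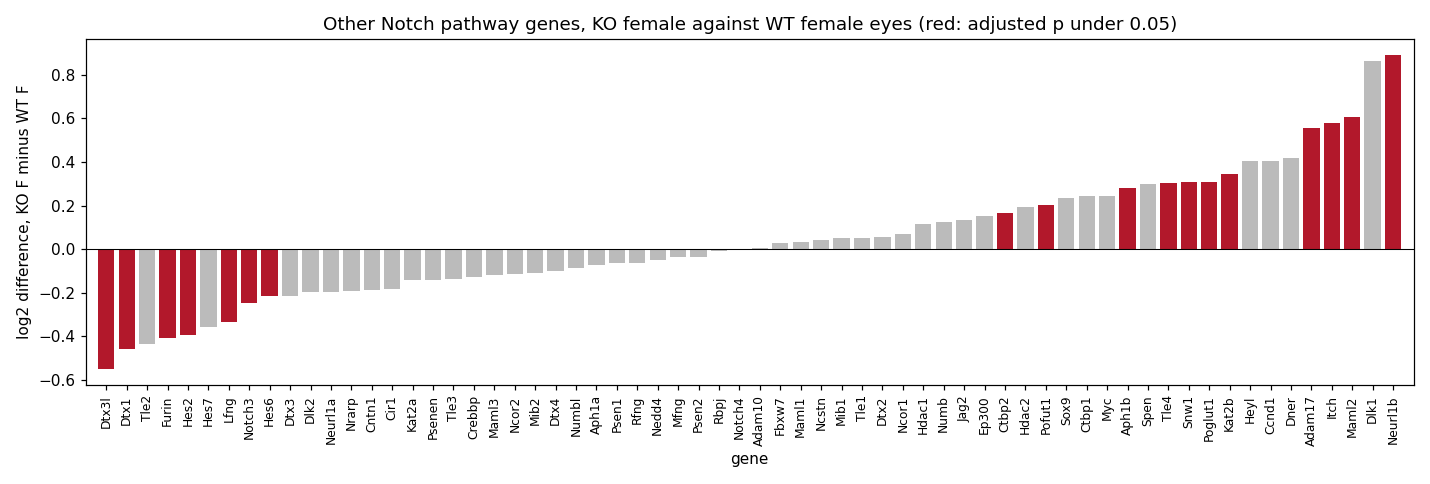
Log2 difference (vertical axis, Ftx-/- minus WT females) of the 64 tested further genes of the pathway (horizontal axis, ordered by the difference), with red for an adjusted p under 0.05. The 11 called rises and 7 called falls lay on either side of a median of 0.00.

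Neurogenic genes next to the pathway were counted from a list of 20. In Ftx-/- against WT females 2 were higher and 8 lower, beside 16.1% and 15.2% of all probes. Of these 10 calls, 4 held without WT female eye 1, 3 without eye 2 and 8 without eye 4. Of the 20 genes 2 lay wholly higher in Ftx-/- eyes and none wholly lower, beside 9.53% and 9.24% of all probes. Dlx2, a homeobox gene of developing retinal ganglion and amacrine cells, was at 3240 to 4750 in WT females and 5160 to 7580 in Ftx-/- eyes (log2 difference 0.62, limma adjusted p = 0.000328). Tubb3, a tubulin of early neurons, was at 44500 to 59700 and 31900 to 48000 (-0.46, adjusted p = 0.00622), and was not called without WT female eye 2 (adjusted p = 0.0596). In males none of the 20 was called, beside 0.00% of all probes, and 2 had an unadjusted p under 0.05, beside 12.8%. Mesenchyme and lens markers moved with the same comparison of females, as given above, and slide and genotype cannot be told apart there.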

How the data were processed

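RNA from 20 eyes was measured on 31 1-colour arrays. The authors deposited, per spot, a background-subtracted intensity with flags, written by Agilent's Feature Extraction (11.0.1.1 in the headers). The deposited series table holds the same intensities, rounded, and was used on the log2 scale as an alternative. The methods list a further WT female eye, not analysed here.

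Probe spots (59305) were normalized by the quantile-spline method that the methods name, written out in R 4.3.3. Spots marked non-uniform (120) or as outliers among copies (5639) were dropped before copies of a probe were averaged, and for each eye with 2 arrays the mean log2 signal was used. The number of eyes limits the precision. Probes whose 4 group means of log2 signal averaged above log2 of 50 were tested (25261), and the brightest probe stood for its gene. Of the tested probes 28 lacked a value in at least 1 eye, none of them a member's. Groups were compared with limma 3.58.1 (trend, all 20 eyes), adjusted by Benjamini-Hochberg over all tested probes. The study's filter (signal above 500, applied here to the mean in WT females) and criteria (fold above 1.2 or below 0.8 with an unadjusted p under 0.05) were alternatives.

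Members and lists were chosen with earlier results of these data known. The text names all members and, of the further pathway genes, up to 6 rises and 6 falls that passed in females and went the same way in all 11 Ftx-/- eyes, and the 3 largest neurogenic changes, of which 1 is not reported here. Marker lists were written from general knowledge.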

Additional observations from a re-analysis of the deposited data

How the results depend on the processing

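In the comparison of Ftx-/- with WT females, 3 member genes were called. None was called with the slide as a fixed block, as a random block (duplicateCorrelation) or with the scan as a fixed block (0 each), and 1 (Hey1) by the methods' test after adjustment and by the study's criteria. The first scan held slide 1 only, so both fixed blocks tie WT to Ftx-/- females through Ftx-/Y eye 1 against eyes 2 and 3. With so thin a link, counts with a fixed block cannot tell slide from genotype. Leaving out 1 WT or Ftx-/Y eye gave 1 to 3, with 1 without WT female eye 1. Of the further pathway genes 18 were called there (11 higher, 7 lower), 9 (all higher) with the series table as it stands, which is not normalized between arrays, 11 with the filter at 500, which tests fewer probes, 0 with the slide fixed, 7 with the slide random, 0 with the scan fixed and 11 by the methods' test, and 8 to 18 with 1 eye left out (8 without WT female eye 1, 10 without eye 2). With the mean of a gene's probes 8 were higher and 11 lower. Between Ftx-/- females and Ftx-/Y males, 1 member (Dll3) was called. The count was 0 with the series table, the groups alone, the scan as a fixed block and Ftx-/- eyes of slide 4 only. It was also 0 with the slide as a fixed block and with slide 2 eyes only, which both rest on the same slide 2 eyes. It was 4 (Notch2, Dll3, Hes1 and Hes5) with Ftx-/- eyes of slide 3 only, and 2 (Notch2 and Dll3) by the methods' test and by the study's criteria. With 1 eye left out it was 0 to 1 (0 without any of the Ftx-/Y eyes). Between WT females and males none was called, but 1 (Dll1) without a filter and with the slide random, 2 (Dll1 and Dll3) by the study's criteria, and 0 to 1 with 1 eye left out (1 without WT female eye 2). Both other counts were 0 under every alternative that gave a value. The second Dll3 probe does not enter these counts. It was called for the difference between the sexes' changes under 1 of 27 alternatives (lowest limma adjusted p = 0.0038). Beyond the causes named, the cause was not tested. Of 1475 recomputed member differences 1410 kept their side of the threshold, 52 lost and 13 gained a call, no called value changed sign, and 61 uncalled ones did. Most of the 1475 were of differences not called to begin with, which could not lose a call. Between females Dll1 lost its call in 7 of 31 alternatives, Dll4 in 11 of 30, Hey1 in 4 of 31 and the second Dll3 probe in 14 of 30. Between the mutants Dll3 lost it in 10 of 32 and its second probe in 6 of 31.

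The eye numbers were shared between groups, but no source says that they pair eyes. Of 16 same-numbered pairs of different groups, deviations correlated at -0.43 to 0.25, and 6 were over 0.1. With the number as a replicate block, 1 member (Hey1) and 6 further genes were called between females, 0 members between the mutants and 0 in each of the other 3 comparisons.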

Other observations

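The members' levels were also set against each other over the 20 eyes after each group's mean was subtracted, as a description in which eyes of a slide share that slide. The highest correlation among the 9 tested genes was that of Dll1 with Hes5 (r = 0.67), followed by Notch2 with Dll3 (r = 0.51), and the lowest were those of Dll3 with Hey1 (r = -0.61) and of Hes1 with Hes5 (r = -0.54). Of 14213 genes compared (1 tested probe each, leaving out probes named only by a transcript or clone), those most like Hes5 were Cenpj (r = 0.89), a centriole gene, the small nuclear RNA-binding genes Lsm7 (r = 0.89) and Lsm10 (r = 0.88), the mitochondrial fission gene Fis1 (r = 0.87) and Fxyd6 (r = 0.86). Most like Dll4 were Ahctf1 (r = 0.78), Cdc42bpb (r = 0.77), Lmf2 (r = 0.77), Fbf1 (r = 0.76) and Ppp1r10 (r = 0.72).

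A second, dim Dll1 probe (chr17:15513726-15513785) was well above background on 4 of 31 arrays, 2 of them of Ftx-/Y eyes, where it read 146 and 50.2 in eyes 1 and 3 against 7.13 to 15.1 in the WT eyes. The bright Dll1 probe did not stand apart in these eyes.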
